A study of Mus musculus with 24 samples.

Results

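The arrays described here are the 12 untreated ones of a series of 24, split into 6 lymphomas with high and 6 with low expression of Vpreb1 and Igll1. These genes encode the surrogate light chain, which pairs with the immunoglobulin heavy chain to form the pre-B receptor before a light chain is made. The split was chosen by measured values: each untreated array was scored by the mean log2 value of the 2 genes, and the 6 highest scores form the high group. Differences in Vpreb1 and Igll1 themselves are therefore no result.

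Every lymphoma arose in an Eμ-Myc transgenic mouse, in which Myc is expressed constitutively in cells of the B lineage, and its cells were isolated from lymph nodes of mice with palpable disease. All 12 lymphomas carried a retroviral Bcl2, a gene that protects from apoptosis, were selected with puromycin, and grew on NIH 3T3 fibroblasts irradiated with 20 Gy. The untreated arrays received no drug. The ADR arrays are the same 12 lymphomas after 5 days with 0.05 µg/ml Adriamycin (doxorubicin, a DNA-damaging agent), and they entered no score. Neither the age nor the strain of the mice is given in the labels. The labels give 1 array per lymphoma and condition, so p-values measure the spread between lymphomas. Total RNA was hybridised to Affymetrix arrays and values are log2 expression. A gene near a value of 5 or less lies close to the floor of these values. A difference against values at the floor is a difference of the values as listed and is not read as a fold. All differences are high minus low.

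B cells develop in the bone marrow through stages marked by surface receptors and transcription factors. Pro-B and pre-B cells depend on interleukin 7, recombine their immunoglobulin genes with the Rag proteins and make the surrogate light chain. Once a light chain is in place the surrogate chain is shut off, and maturing B cells gain genes such as Ms4a1 (CD20), Fcer2a (CD23) and those of MHC class II. Myc-driven lymphomas of this mouse can arrest at either stage.

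The boundary between the groups passed between near neighbours. In the high group lymphoma 3802 scored 11.06, 5560 scored 9.25, 5766 scored 7.72, 2949 scored 6.81, 6054 scored 6.71 and 3594 scored 5.97. In the low group 3769 scored 5.76, 2581 scored 5.48, 7050 scored 5.37, 1570 scored 4.85, 403 scored 4.84 and 1467 scored 4.66. Lymphomas 3594 and 3769, on either side of the boundary, were 0.22 apart, while 3802 and 5560 stood 1.81 apart and 5560 stood 1.53 above the next. With Vpreb1 alone as the score, 3594 and 3769 changed places.

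The Igll1 probe set used is of a kind that can read related transcripts, and the other Igll1 probe set stayed at the floor in every untreated array (3.31 to 3.96). A probe set shared by Vpreb2 and Vpreb1 ranged from 4.18 to 8.11. After ADR the score was 11.15 in 3802 but 4.69 in 5560, and between 4.14 and 6.25 in the other 10 lymphomas. The mean of fibroblast markers, listed for the feeder layer, was 9.04 in the ADR array of 5560 and 5.12 in its untreated array. Whether feeder RNA had a part in the lower score was not tested.

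**Figure D1:**
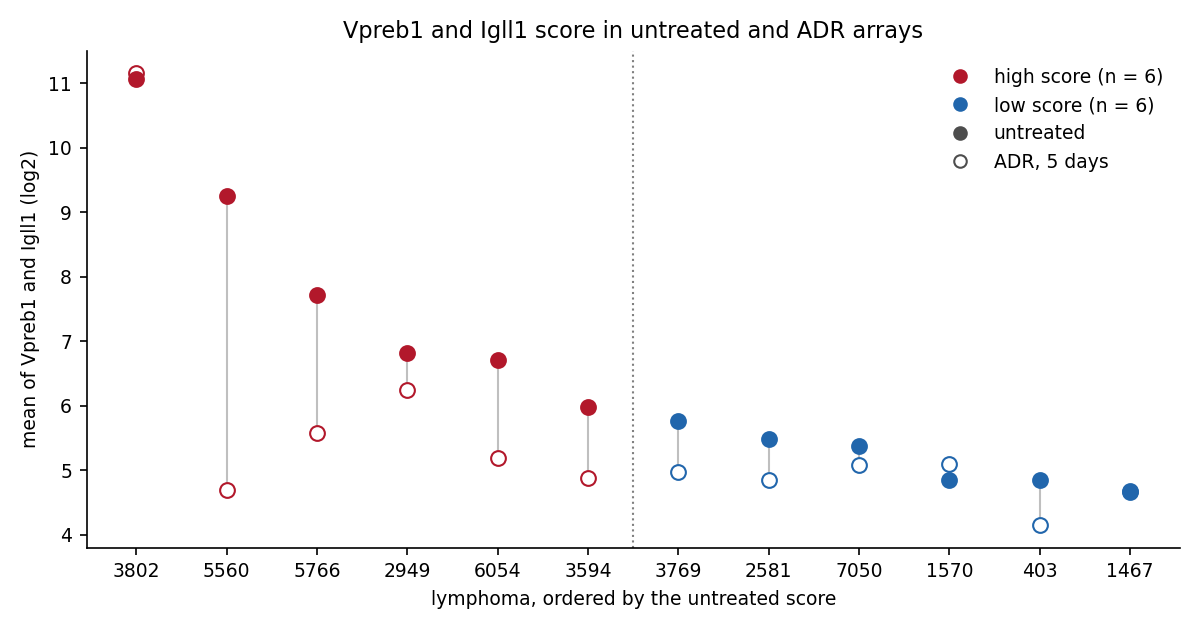
Score (mean log2 of Vpreb1 and Igll1, vertical axis) of each lymphoma, ordered by its untreated score; filled points are untreated arrays, open points ADR arrays, red the high and blue the low group, and the dotted line is the boundary. Lymphomas 3802 (11.06) and 5560 (9.25) stand above the others before treatment, and after ADR only 3802 keeps a high score (11.15); the open point of 1467 lies under its filled one.

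Other markers of early B cells were checked against the name of the groups. Vpreb3, which accompanies the pre-B receptor during its assembly, had a lowest, median and highest value of 9.59, 10.24 and 10.82 in the high group and of 6.78, 9.26 and 10.04 in the low group. Il7r, the interleukin 7 receptor chain, had 7.69, 9.07 and 9.67 against 3.89, 6.68 and 9.80. Both were high in every lymphoma of the high group and spread widely in the low group, so the groups overlapped. The difference was 1.27 for Vpreb3 (SE 0.52, limma adjusted p = 0.639) and 2.30 for Il7r (SE 0.90, adjusted p = 0.628). Neither passed the test at an adjusted p under 0.05.

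Sox4 and Myb, transcription factors of progenitors, showed the same form. Sox4 reached 8.63 to 11.15 in the high group and 4.73 to 11.50 in the low group, a difference of 1.55 (SE 0.96, adjusted p = 0.719). Myb reached 9.98 to 10.92 and 6.62 to 10.69, a difference of 1.11 (SE 0.61, adjusted p = 0.698). Notch1, a receptor of lineage decisions, had medians of 8.42 and 7.15, a difference of 1.00 (SE 0.30, adjusted p = 0.541). For Il7r, Sox4 and Myb, lymphoma 1467 had the lowest value of the low group, with 3.89, 4.73 and 6.62.

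Recombination genes did not follow the score. Rag1, which cuts DNA at immunoglobulin loci, was at the floor in the highest scorers 3802 (3.68) and 5560 (3.51), and its highest value, 7.79, was in lymphoma 2581 of the low group. Its difference was 0.35 (SE 0.83, adjusted p = 0.940). Rag2 lay between 3.64 and 4.73 in all 12 arrays. Dntt, the polymerase that adds bases at the joints, was high in 1 lymphoma of each group, 3594 (9.60) and 3769 (10.08), and was at most 5.72 in the others. Kit and Erg, of earlier progenitors, lay at the floor, with Kit between 3.18 and 3.94 and Erg between 4.40 and 4.85. The pan-B genes Cd79a (10.53 and 10.88 as medians), Cd79b (11.01 and 11.23) and Ighm (13.12 and 12.78), which build the B cell receptor, were expressed in every lymphoma. Because the recombination genes do not separate the groups, they are called by their rule, high and low score, and not by a stage.

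**Figure D2:**
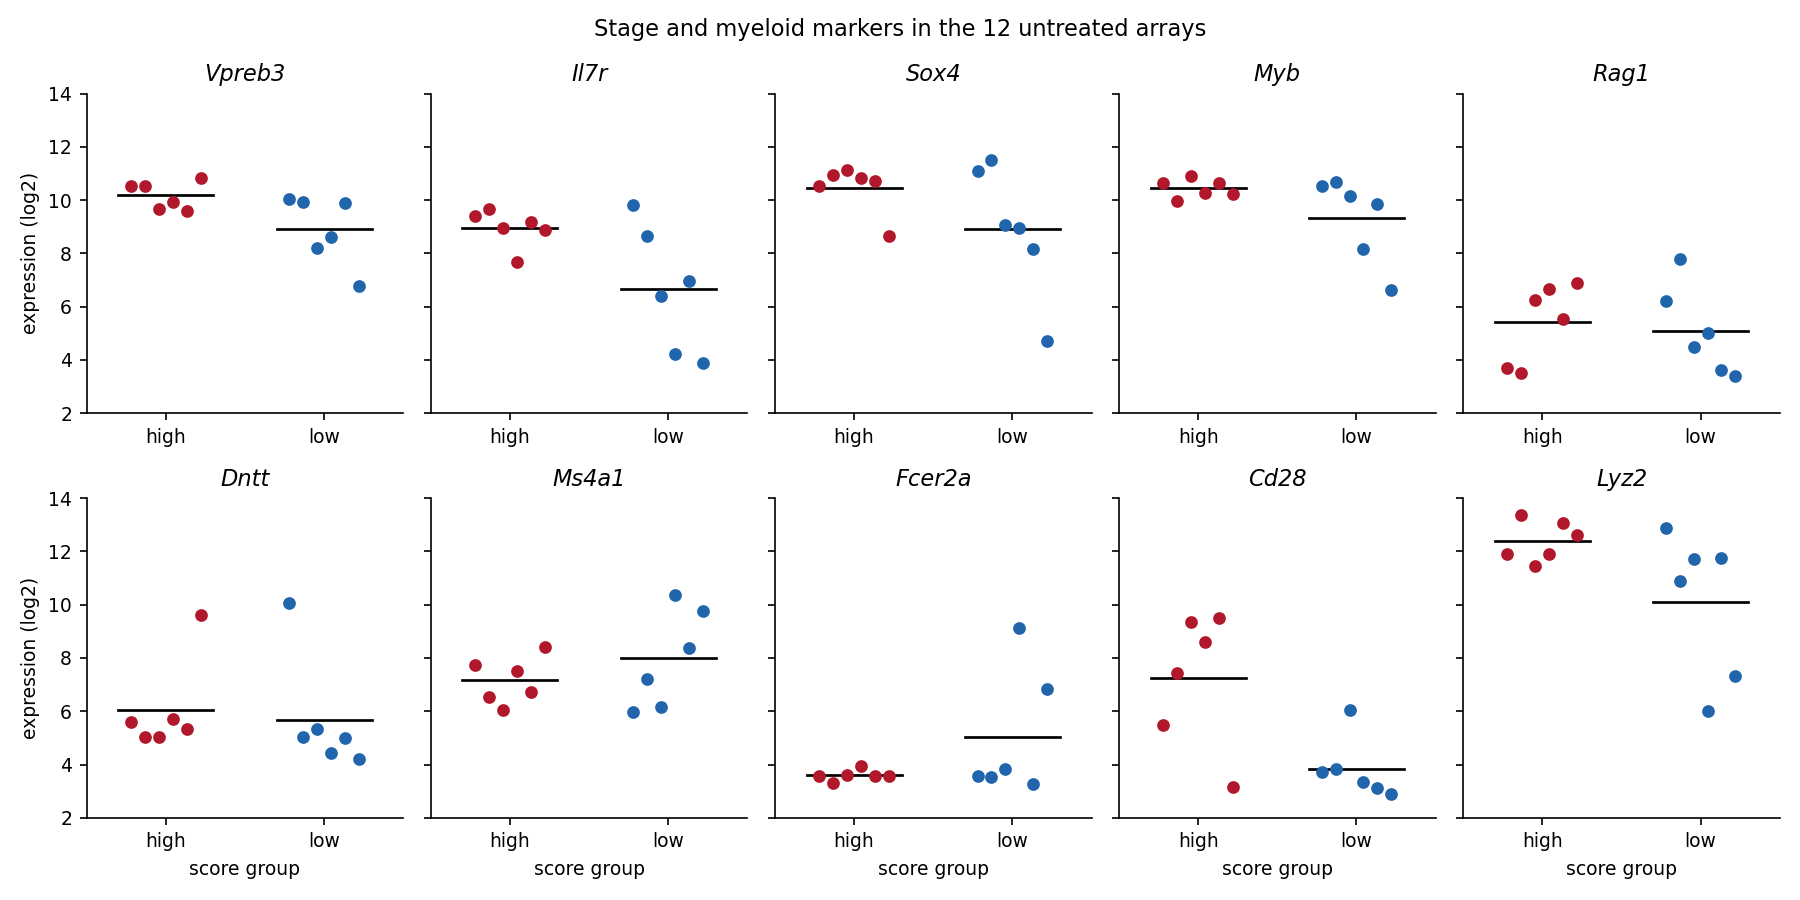
Log2 expression (vertical axis) of 10 genes in the 12 untreated arrays, by score group (red high, blue low, n = 6 each); points run from the highest score on the left to the lowest on the right within a group, and bars are means. Vpreb3, Il7r, Sox4 and Myb spread further down in the low group, Rag1 and Dntt do not follow the score, and Fcer2a is above 4 only in 2 lymphomas of the low group.

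Across all genes, 0 of 18191 passed the limma test between the groups (0% called, smallest adjusted p = 0.423). At an unadjusted p under 0.05 there were 1360 genes (7.48%), 844 higher and 516 lower in the high group. The median difference of all genes was 0.02 and 54.1% of them were above 0. The standard error of a gene's difference had a median of 0.14. Counts of list members at that p are read against these 7.48%. In 58 genes the 6 and 6 values did not overlap, 36 higher (0.198% of genes) and 22 lower (0.121%) in the high group.

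The file names of the treated arrays hold one of the words DOX and sen, and the labels do not say what the words stand for. The words divide the lymphomas unevenly over the split: 5 of the high group and 2 of the low group have DOX, and 1 and 4 have sen. The lymphoma with sen in the high group is 5560. A difference between the words and a difference between the groups can therefore be told apart only in part. Values within each word are differences of group means and carry no test, and those within sen rest on 5560 alone for the high group. The scoring genes themselves differed less within DOX, Vpreb1 by 1.94 within DOX and 4.84 within sen, and Igll1 by 2.24 and 3.75. The low group within DOX consists of 3769 and 7050, which rank 7 and 9 by score (5.76 and 5.37). Several of the stage markers above were also much closer within DOX. Whether the smaller difference in score had a part in this was not tested. Il7r differed by 0.71 within DOX and 3.74 within sen, Sox4 by 0.30 and 2.61, Myb by 0.19 and 1.15, and Notch1 by 0.02 and 1.83. Vpreb3 differed by 0.99 and 1.74. Rag1 differed by 0.46 and -1.43, and Dntt by -1.46 and 0.38.

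Among genes whose groups did not overlap, the largest differences upward were those of Cacna1h, Plpp3, Gnb5, Gm5617, Tmem86a, Tlr4, Scmh1, Pqlc3, Plekhm3, Inpp4a, Tut7 and Akirin1. They were named for not overlapping, so that feature is no finding. Cacna1h, a subunit of a T-type calcium channel, lay between 4.47 and 6.53 (median 4.99) in the high group and at the floor, between 3.45 and 4.21, in the low group. The highest values were those of 5766 (6.53) and 2949 (6.20), not of the highest scorers. Its difference was 1.39 (SE 0.35, adjusted p = 0.485), 1.80 within DOX and 0.51 within sen.

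Plpp3, a phosphatase of lipid phosphates at the cell surface, lay between 5.55 and 6.59 (median 5.98) in the high group and between 4.44 and 5.19 (median 4.78) in the low group. Its difference of 1.24 (SE 0.20, adjusted p = 0.423) was similar within DOX (1.29) and within sen (1.21). In the ADR arrays its level was higher in both groups and the difference was -0.13 (SE 0.93). Its highest values after ADR were those of 403 (9.93), 3769 (9.90) and 5560 (9.79). The fibroblast marker means of these ADR arrays, 9.19, 7.73 and 9.04, were also the highest. A part of feeder RNA in these values was not tested. Gnb5, a G protein beta subunit, had a difference of 1.11 (SE 0.28), and its groups met at 5.47. Tlr4, the receptor for bacterial endotoxin, which B cells and myeloid cells express, lay between 5.76 and 6.36 in the high group and between 4.98 and 5.75 in the low group (difference 0.68, SE 0.15, adjusted p = 0.423).

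The other 8 genes differed by 0.43 to 0.96, with adjusted p between 0.423 and 0.518. Gm5617 lay highest in 5560 (7.67) and lowest in 2581 (5.62). Inpp4a, a phosphatase of phosphoinositides, had a difference of 0.53 (SE 0.12). Scmh1, a Polycomb protein, had 1 of 3 probe sets with this direction and Akirin1, a nuclear protein, 1 of 2. The direction of Akirin1 turned to -0.14 with its probe set of largest variance.

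The largest differences downward were those of Idi1, Elovl6, Nsdhl, Slc5a3, Mvd, Galnt12, Car12, Mfsd2a, Erg28, Tob1, Dhodh and Pcyt2. Idi1, Nsdhl and Mvd encode enzymes of cholesterol synthesis, Erg28 a scaffold of sterol enzymes, Elovl6 an enzyme that lengthens fatty acids, and Pcyt2 an enzyme of phospholipid synthesis. Idi1, which turns isopentenyl diphosphate into its isomer, read 9.24 in 3802, 8.11 in 5560, 9.52 in 5766, 6.98 in 2949, 8.55 in 6054 and 7.97 in 3594. In the low group it read 9.68 in 3769, 10.42 in 2581, 10.33 in 7050, 10.63 in 1570, 9.67 in 403 and 9.94 in 1467. Lymphoma 2949 had the lowest value of all, and the highest of the high group, that of 5766, lay just below the lowest of the low group, that of 403. Idi1 was 3.28-fold lower in the high group (difference -1.72, SE 0.38, adjusted p = 0.423).

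Slc5a3, which imports inositol, lay between 4.64 and 5.65 in the high group and between 5.69 and 7.17 in the low group (difference -1.15, SE 0.25, adjusted p = 0.423). Tob1, a regulator of messenger RNA decay that restrains proliferation, lay between 7.62 and 7.92 and between 8.05 and 8.83 (difference -0.76, SE 0.13, adjusted p = 0.423). Tob1 differed by -0.63 within DOX and by -0.69 within sen. Car12, a carbonic anhydrase of the cell surface, differed by -0.84 (SE 0.17), and 2 of its 3 probe sets had this direction. Galnt12, which starts O-linked glycans, differed by -0.87 (SE 0.20). Mfsd2a, a transporter of lipids, Dhodh, an enzyme of pyrimidine synthesis, and Pcyt2 differed by -0.82, -0.59 and -0.56. In Elovl6, Mfsd2a, Erg28 and Dhodh the lowest value of all was that of lymphoma 2949.

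**Figure D3:**
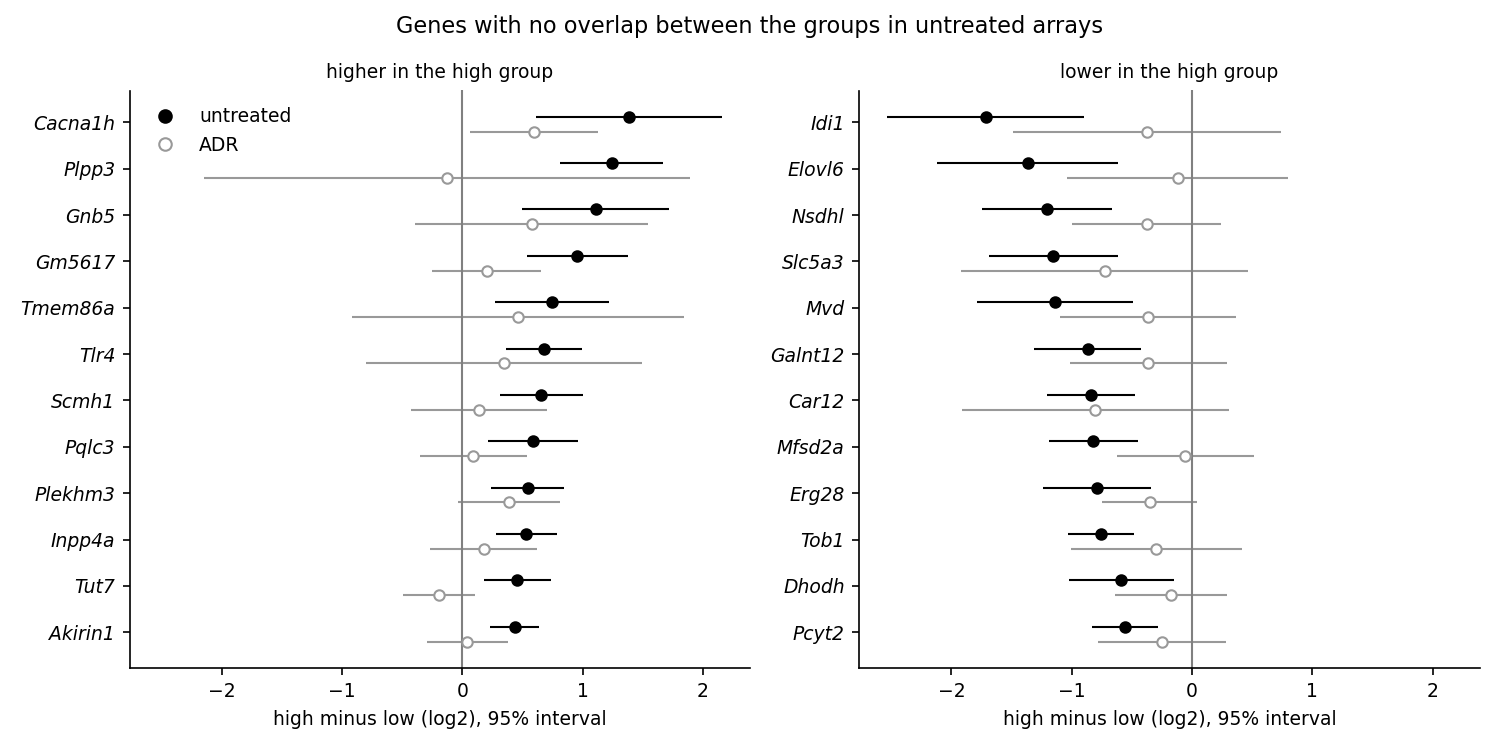
Difference between the high and the low group (log2, horizontal axis) with its 95% interval from limma for the 24 genes named for groups that did not overlap; filled points are the untreated arrays, open points the ADR arrays of the same lymphomas. Idi1 differs by -1.72 in untreated and by -0.37 in ADR arrays, and Plpp3 by 1.24 and -0.13.

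Because Idi1, Nsdhl and Mvd were among these genes, the enzymes of cholesterol synthesis were described as a list, chosen after their values were seen, so that its counts support nothing on their own. Cells make cholesterol from acetyl units through mevalonate, isoprenoid diphosphates, squalene and lanosterol. When membrane sterol is low, the factor SREBP-2, encoded by Srebf2, is released and drives most of these enzymes together with factors that bind CCAAT boxes. Their promoters are shown because the members had the same direction. The 250 bases before the start in RefSeq (GRCm38.p6) are printed for Hmgcs1, Idi1 and Nsdhl, all on the plus strand. Hmgcs1 is at chr13:119690101-119690350, Idi1 at chr13:8885356-8885605 and Nsdhl at chrX:72918271-72918520. Capitals mark matches to the CCAAT box and to a sterol element, written TCACNCCAC, both searched on either strand.

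Hmgcs1: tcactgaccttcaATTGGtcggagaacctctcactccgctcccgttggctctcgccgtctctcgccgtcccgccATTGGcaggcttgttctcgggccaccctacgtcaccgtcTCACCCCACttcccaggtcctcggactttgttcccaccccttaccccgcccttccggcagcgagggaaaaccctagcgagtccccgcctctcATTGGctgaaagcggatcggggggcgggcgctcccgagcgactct
Idi1: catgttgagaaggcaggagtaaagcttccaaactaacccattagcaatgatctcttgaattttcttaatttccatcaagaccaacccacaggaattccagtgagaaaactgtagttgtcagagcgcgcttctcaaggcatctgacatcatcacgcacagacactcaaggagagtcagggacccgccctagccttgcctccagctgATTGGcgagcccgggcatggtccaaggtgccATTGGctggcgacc
Nsdhl: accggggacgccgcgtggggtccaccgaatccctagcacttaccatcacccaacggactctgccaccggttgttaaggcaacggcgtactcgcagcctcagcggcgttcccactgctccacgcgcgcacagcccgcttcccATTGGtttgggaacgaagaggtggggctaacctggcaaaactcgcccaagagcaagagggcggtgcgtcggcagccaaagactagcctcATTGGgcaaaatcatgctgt

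Of the 17 measured enzymes, 14 had an entry in the promoter table. All 14 held CCAAT in these 250 bases on 1 strand or the other, against 37.5% of the 27025 genes in the table and 33.8% of its 32851 promoters. Hmgcs1 held 3 matches, and Idi1 and Nsdhl held 2 each. The sterol element as searched was found in 1 of the 14, Hmgcs1, against 1.22% of genes and 1.05% of promoters. The 2 patterns share no bases in the printed stretches. A match is a run of letters and does not show binding.

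Of the 17 measured enzymes, 17 were lower in the high group, with a median difference of -1.21 beside 0.02 for all genes. Of them 14 (82.4%) had an unadjusted p under 0.05, against 7.48% of all genes, and 0 were called. The list was looked at because members of it stood out in this contrast, so that share was in part fixed by its choice. Hmgcs1, an early enzyme of the pathway, had 8.20, 9.25 and 10.43 as lowest, median and highest value in the high group and 10.14, 10.79 and 11.27 in the low group. Only 5766 of the high group reached into the range of the low group. Hmgcs1 was 3.14-fold lower (difference -1.65, SE 0.34, adjusted p = 0.423).

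Later steps had the same direction. Fdps, which makes farnesyl diphosphate, differed by -1.55, Sqle, the squalene epoxidase, by -1.27, Cyp51, which demethylates lanosterol, by -1.36, and Msmo1, another demethylating enzyme, by -1.64. Nsdhl lay between 6.40 and 7.90 in the high group and between 8.15 and 9.04 in the low group, 2.31-fold lower (difference -1.21, SE 0.25, adjusted p = 0.423). Pmvk (-0.47), Hsd17b7 (-0.37) and Tm7sf2 (-0.06) had an unadjusted p above 0.05, and within DOX all 3 were above 0 (0.21, 0.0175 and 0.39). The list mean per array lay between 6.93 and 8.38 in the high group, lowest in 2949 and highest in 5766. It lay between 8.15 and 9.20 in the low group, lowest in 3769 and highest in 1570, so that 5766 reached above 3769 and 7050 (8.35).

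Some genes that respond to sterol had differences of like size. Insig1, which holds SREBP back, differed by -1.32 (SE 0.27, adjusted p = 0.423), Stard4, which carries sterol between membranes, by -1.47 (SE 0.31) and Srebf2 by -0.80 (SE 0.24). The lists of sterol sensing and of fatty acid synthesis were added with that of the cholesterol enzymes, and the latter holds Elovl6, named above. Their counts therefore support nothing on their own either. Of 12 measured genes of sterol sensing, uptake and efflux, 7 were lower, with a median of -0.18, and 6 (50%) had an unadjusted p under 0.05. Of 15 measured genes of fatty acid synthesis, 13 were lower, with a median of -0.41, and 6 (40%) had an unadjusted p under 0.05. Among those were the desaturases Fads2 (-1.52) and Scd1 (-1.26) and the activating enzyme Acsl3 (-1.18).

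The enzyme levels did not follow the order of the score. The highest scorer, 3802, had a list mean of 7.89, above 4 others of its group, and with the score as a continuous measure, scaled to the gap between the group means, the median was -0.48. Without the 2 highest scorers the median difference was -1.32. The median was -0.76 within DOX and -1.16 within sen, and -0.99 with the word as a block. With the macrophage marker mean as a covariate it was -1.05. It ranged from -1.31 to -1.02 when each lymphoma was left out in turn, and was -0.86 when the score came from Vpreb1 alone.

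**Figure D4:**
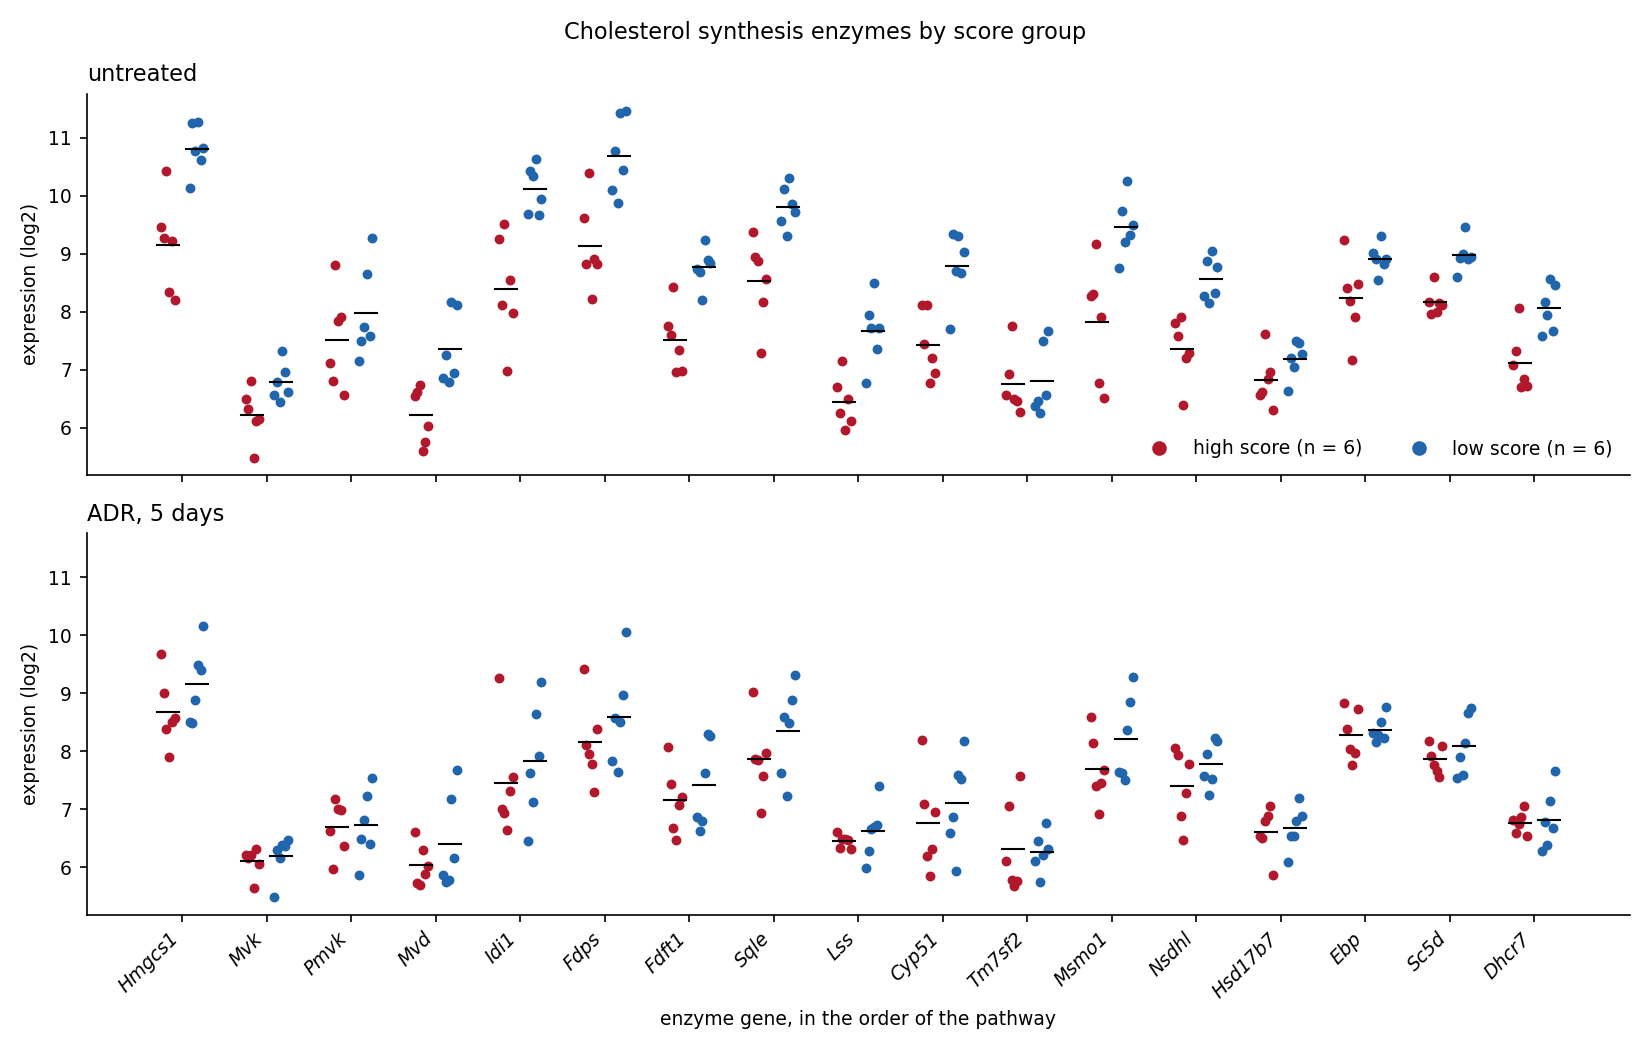
Log2 expression (vertical axis) of the 17 measured cholesterol synthesis enzymes, in the order of the pathway, in untreated arrays (top) and ADR arrays (bottom); red points are the high and blue the low group (n = 6 each), bars are means. In untreated arrays the mean of the high group is lower for all 17 enzymes, with a difference of -1.65 for Hmgcs1, and in ADR arrays the groups lie closer, with -0.48 for Hmgcs1.

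Genes of mature B cells varied mainly within the low group. Of 30 measured surface and homing genes 19 were lower in the high group, with a median of -0.31, and 1 (3.33%) had an unadjusted p under 0.05, against 7.48% of all genes. Fcer2a, the low-affinity IgE receptor, read 9.11 in lymphoma 1570 and 6.83 in 1467 and between 3.27 and 3.96 in the other 10. Ccr6, a chemokine receptor, read 9.05 and 8.85 in the same lymphomas and at most 4.53 elsewhere. Ms4a1, the gene of CD20, read 10.38 and 9.77 in them and between 5.97 and 8.40 elsewhere. The differences between the groups were -1.42 for Fcer2a, -1.79 for Ccr6 and -0.82 for Ms4a1, with adjusted p of 0.722, 0.673 and 0.808, and for Fcer2a and Ccr6 most arrays lay at the floor. Both lymphomas have the word sen: within DOX the list median was 0.09 and within sen -0.79, and Ms4a1 differed by 1.22 and by -2.40, Fcer2a by -0.04 and -2.38, and Ccr6 by -0.19 and -3.00. Cd22, an inhibitory receptor, differed by 0.03 (adjusted p = 0.988), and Cr2 stayed under 5 in every array.

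MHC class II genes, which present peptides to T cells, followed the same lymphomas. Of 15 measured, 12 were lower in the high group, with a median of -0.22 and 0% at an unadjusted p under 0.05. H2-DMb2, a chaperone of peptide loading, read 11.19 in 1570 and 11.38 in 1467 and between 7.12 and 9.36 elsewhere. It differed by 1.20 within DOX and -2.84 within sen, and H2-DMa, another chaperone of loading, by 1.35 and -2.58 (-0.59 over all, adjusted p = 0.868). The list median was 0.49 within DOX and -1.24 within sen. Without either of these lymphomas it was -0.13 or -0.11.

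Genes of B lineage transcription factors differed little. Of 30 measured early factors 23 were higher in the high group, with a median of 0.15, and 0 had an unadjusted p under 0.05. Ebf1 (0.24), Pax5 (0.15) and Lef1 (0.67) had adjusted p of 0.902, 0.788 and 0.816, and Irf4 (-0.36) and Bach2 (-0.25), factors of later stages, 0.853 and 0.924. Among 19 measured genes of the pre-B receptor and recombination list 15 were higher, with a median of 0.15 and 2 (10.5%) at an unadjusted p under 0.05, Vpreb3 and Il7r. Their median was 0.06 within DOX and 0.29 within sen. Of 34 genes of B cell receptor signalling 23 were higher (median 0.09, 0.14 within DOX and -0.05 within sen). Prkcb, a kinase below the receptor, had a difference of -1.02 (adjusted p = 0.623), -0.94 within DOX and 0.22 within sen. Rasgrp3, which activates Ras, differed by 0.76 (adjusted p = 0.828), 1.42 within DOX and -0.60 within sen.

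The factors and signalling genes with the largest differences in their lists also spread widely. Egr1, an immediate early factor, lay between 5.77 and 11.50 in the high group and between 4.23 and 9.90 in the low group (difference 1.87, SE 1.17, adjusted p = 0.722), 1.76 within DOX and -0.01 within sen. Klf4, a factor of resting B cells, differed by 1.06, and Bcl6, the repressor of germinal centre B cells, by 0.68. For Klf4 the low group and most of the high group lay near the floor. It read 7.63 in 5560, 5.77 in 3802 and at most 5.08 in the other lymphomas. The difference of Klf4 was 0.65 within DOX and 3.78 within sen. The leukaemia inhibitory factor receptor gene Lifr differed by 0.94, and Socs2, which restrains cytokine signals, by -0.92. Flt3, a receptor of progenitors and dendritic cells, differed by -0.86, and the heavy chain gene Ighg3 by -0.93. Ccl22, a chemokine, differed by -1.48 and Nfkbiz, a regulator of NF-kB, by 0.77 in the list of NF-kB targets. The 8 genes after Egr1 had adjusted p between 0.611 and 0.716.

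Some genes read highest in 3 lymphomas of the high group, 5766, 2949 and 6054, with a clear gap to the rest only in part of these genes. Cd28, a costimulatory receptor of T cells, read 9.36 in 5766, 8.59 in 2949 and 9.48 in 6054, 7.44 in 5560, 5.49 in 3802 and 3.15 in 3594. In the low group it read at most 6.04, in 7050. Its difference was 3.43 (SE 1.01, adjusted p = 0.518), against a low group mostly at the floor, and 2.33 within DOX and 4.15 within sen. Rgs13, a regulator of G protein signals in germinal centre B cells, read 9.79, 9.83 and 8.50 in the same 3 and at most 5.41 elsewhere. Cd5, a surface protein of T cells and of a subset of B cells, read 10.12, 9.95 and 9.68 in them and 9.49 in 7050. The difference was 2.52 for Rgs13 and 1.93 for Cd5, with adjusted p of 0.696 and 0.729. Of the 17 T and NK markers 13 were higher in the high group, with a median of 0.08. Of them 3 (17.6%) had an unadjusted p under 0.05, and only 6 had a group mean above 5. Their array means lay between 4.74 and 5.11 in the high and between 4.48 and 4.74 in the low group. Cd28 and Cd5 are members of this list, so its array means are not separate from the values above.

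The drivers and the cell cycle genes were close between the groups. Myc differed by -0.41 (SE 0.23, adjusted p = 0.703) and Bcl2 by 0.47 (SE 0.24, adjusted p = 0.680). Cdkn1a, the gene of the cell cycle inhibitor p21, differed by 0.75 (adjusted p = 0.717), 0.18 within DOX and 1.01 within sen. Cdkn2a, which encodes p16 and p19ARF, was above the floor in 1 lymphoma of each group, 3594 (5.70) and 403 (6.82). Of 28 measured S phase genes 26 were lower in the high group, by a median of -0.28, with Mcm5, of the replicative helicase, at -0.58 (adjusted p = 0.654) and Pole, a replicative polymerase, at -0.47. Of 32 genes of MYC targets and ribosome biogenesis 29 were lower (median -0.22), with the nucleolar genes Nolc1 and Nop16 at -0.54 and -0.54, and of 29 mitosis genes 21 (median -0.10). Ndc80, of the kinetochore, differed by 0.56 (SE 0.15, adjusted p = 0.486) and by 0.64 within DOX and 0.76 within sen. Aurkb, a mitotic kinase, differed by -0.50, 0.03 within DOX and -1.65 within sen, and Mki67, the proliferation marker, by -0.27, 0.01 and -1.34. The mitosis median was 0.31 within DOX and -1.13 within sen, where the high group is lymphoma 5560 alone. Of 24 p53 targets and regulators 17 were higher (median 0.27), with Phlda3 at 0.76 and Pmaip1, which encodes the death inducer NOXA, at 0.75. Bmf, of the same BCL2 family, differed by 0.61 (adjusted p = 0.611). Of 27 interferon response genes 19 were lower. The interferon median was -0.02 within DOX and 0.54 within sen, with Rtp4 at -1.19 and Ifih1, a sensor of viral RNA, at 0.61 over all.

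RNA of other cells differed between arrays. Macrophage markers were higher in the high group for 19 of 24, with a median of 0.45 and 4 (16.7%) at an unadjusted p under 0.05. The list median was -0.09 within DOX and 2.22 within sen. Their mean per array lay between 6.55 and 8.44 in the high group and between 5.50 and 7.80 in the low group, lowest in 1570 (5.50) and 1467 (5.61). Lyz2, the lysozyme of macrophages, read 6.03 in 1570, 7.30 in 1467 and between 10.90 and 13.36 elsewhere. Its difference was 2.29 (SE 1.05, adjusted p = 0.667), -0.10 within DOX and 4.36 within sen, and that of Lyz1 was 2.10, -0.08 and 3.80. Mmp8, a collagenase of neutrophils, differed by 2.52 (SE 0.73, adjusted p = 0.517), 1.42 within DOX and 5.71 within sen, and S100a8, also of neutrophils, by 1.67. These were the largest differences of their list. Of its 13 measured members 9 were higher and 4 lower, with a median of 0.06, and 4 (30.8%) had an unadjusted p under 0.05. Only 6 of the 13 had a group mean above 5. The neutrophil median was 0.04 within DOX and 0.18 within sen. Klrd1, of NK cells and listed with dendritic markers, read 7.27 in 1467 and at most 4.18 elsewhere. Fibroblast markers, listed for the feeder layer, had array means between 4.79 and 5.57 and between 4.81 and 5.19, with Fn1 differing by 0.90 and Col1a2 by 0.63. Red cell and platelet markers differed little, with Gp9 at -0.24 and Hba-a1, at the floor, at 0.23. In such arrays fewer cells of a type and less RNA per cell cannot be told apart. With the macrophage marker mean as a covariate the difference was 0.50 for Tlr4 in place of 0.68, 1.15 for Plpp3 in place of 1.24 and 1.56 for Il7r in place of 2.30, and the MHC class II median was 0.18 in place of -0.22.

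**Figure D5:**
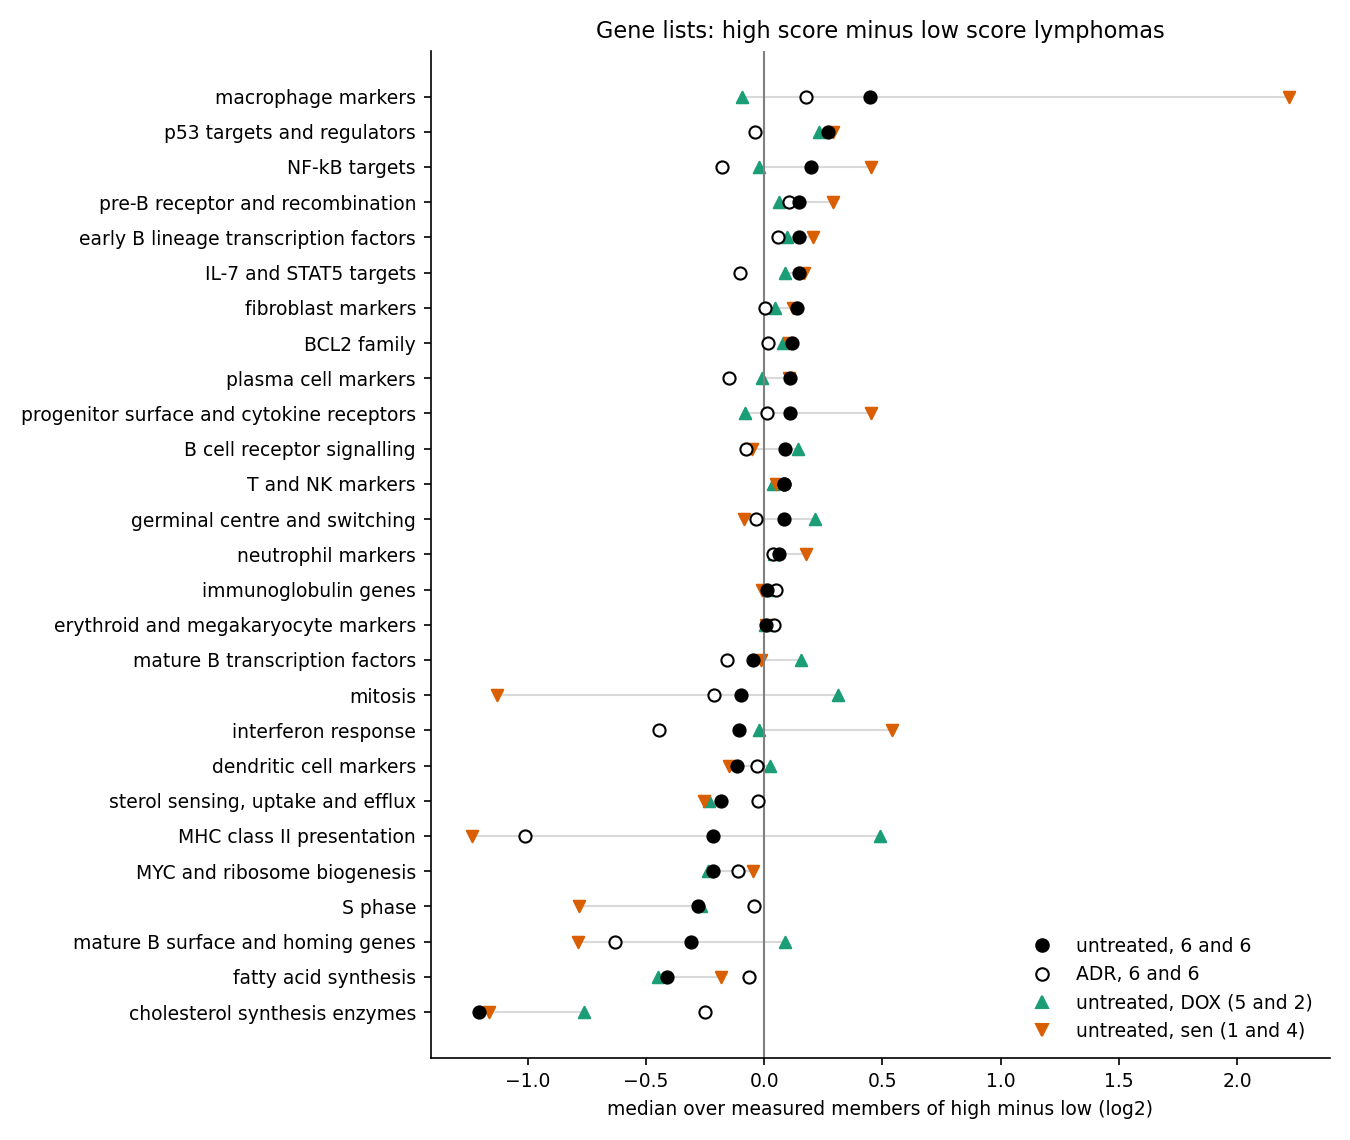
Median over the measured members of each of 27 gene lists (rows; the list of sex-linked genes is not drawn) of the difference between the high and the low group (log2, horizontal axis): filled circles untreated arrays, open circles ADR arrays, triangles untreated arrays within each file name word. Cholesterol synthesis enzymes lie lowest in untreated arrays (-1.21) and below 0 within both words, while MHC class II genes lie at 0.49 within DOX and -1.24 within sen.

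The ADR arrays of the same lymphomas carry the same split in arrays that the score did not read. There 0 of 18191 genes passed the limma test (0%, smallest adjusted p = 0.999), with 481 (2.64%) at an unadjusted p under 0.05. The groups did not overlap in 17 genes that were higher (0.0935%) and 3 that were lower (0.0165%) in the high group. Of the 58 genes apart before treatment, 0 were apart after ADR, and 38 (65.5%) had the same sign, against 61.2% of all genes.

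The cholesterol enzymes lay closer together after ADR. Of 17, 16 were lower in the high group, with a median of -0.25 and 0 at an unadjusted p under 0.05. Idi1 had means of 7.45 and 7.83 (difference -0.37, SE 0.51), and the list mean lay between 6.78 and 7.81 in the high and between 6.86 and 8.24 in the low group. Car12 had a difference of -0.80 (SE 0.51) and Cd28 of 2.75 (SE 1.09). MHC class II genes had a median of -1.01, beside -0.22 before treatment. After ADR 12 of 15 were lower and 4 (26.7%) had an unadjusted p under 0.05. H2-DMb2 differed by -1.85 (SE 0.93), with 12.21 in 1570, 11.67 in 1467 and 9.99 in 2581. In the other lymphomas it lay between 6.70 and 8.41. Ms4a1 differed by -2.07 (SE 0.93), with 11.56 in 1570, 10.34 in 1467 and between 4.92 and 8.96 elsewhere. Of the 30 mature B surface genes 26 were lower, with a median of -0.63. Of them 2 (6.67%) had an unadjusted p under 0.05, against 2.64% of all genes. Their mean per array was 8.16 in 1570, 8.07 in 1467 and between 6.09 and 6.88 elsewhere. All 27 interferon response genes were lower, with a median of -0.45 and 3 (11.1%) at an unadjusted p under 0.05. Their array means overlapped, between 5.88 (2949) and 8.36 (5560) in the high group and between 7.27 and 8.57 in the low group. None of these genes passed the test (adjusted p = 0.999).

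Whether the change with ADR differed between the groups was tested with the lymphoma as a block. By limma 0 of 18191 genes passed (0%, smallest adjusted p = 0.945), with 911 (5.01%) at an unadjusted p under 0.05. This contrast shares the untreated arrays with the split. The mean change with ADR of Idi1 was -0.95 in the high group and -2.29 in the low group, and that of Hmgcs1 -0.48 and -1.65. For 14 of the 17 enzymes (82.4%, against 5.01% of all genes) the difference in change had an unadjusted p under 0.05, with a median of 0.83. The enzyme list was chosen for its untreated differences, which are part of this contrast. Its share was therefore in part fixed by that choice and supports nothing on its own. For MHC class II genes 8 of 15 (53.3%) had an unadjusted p under 0.05, with a median of -0.69, and 0 were called. The mean of this list rose with ADR in 2581 (8.86 to 9.29), 1570 (9.93 to 10.37) and 1467 (9.95 to 10.15). These lymphomas of the low group have the word sen. Elsewhere the mean rose only in 3802 of the high group, from 8.40 to 8.75. For Vpreb3 the mean changes were -2.55 and -1.79.

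The genes whose untreated values followed the score most closely over the 12 arrays were Clca1, Caskin2, Gm19600, Chil3, Mtarc1, 1700042O10Rik, Rab7, Gm20767, Ramp1 and Fbxo43, with Pearson correlations from 0.897 for Clca1 to 0.830 for Fbxo43. The arrays share lymphomas 3802 and 5560 at the top of the score. Without them the correlation was -0.01 for 1700042O10Rik and -0.16 for Ramp1. It remained at 0.825 for Gm19600. Of the 10, 5 lay at the floor in all arrays: Clca1, the best correlated, between 2.55 and 3.33, Gm19600 between 2.80 and 3.25, Chil3 between 2.73 and 3.26, Fbxo43 between 2.78 and 3.42, and 1700042O10Rik between 2.56 and 4.67. Mtarc1 (3.76 to 5.04) and Gm20767 (3.10 to 5.17) lay close to it, so these correlations rank small differences between weak values. Ramp1, a partner of peptide hormone receptors, read 7.55 in 3802 and 6.42 in 5560 and between 3.89 and 5.01 elsewhere. Rab7, a GTPase of late endosomes, was the one of the 10 with values above 10 in every array, from 10.06 to 10.73.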

How the data were processed

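The deposited table gave 1 log2 value per probe set and array. Per the submitters' processing notes, the authors used RMA (which corrects background, normalizes between arrays and summarizes probes) and Partek, with no version named. RMA compresses weak values toward a floor. Array medians lay between 4.38 and 4.47, and 0 arrays were identical. Groups came from the titles and the score.

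Of 45101 probe sets, 34945 named 1 gene. Each of 18193 genes was represented by its probe set with the highest mean over 24 arrays, and the 2 scoring genes were kept out of counts. Promoters came from RefSeq (GRCm38.p6). Groups were compared with limma 3.58.1 (lmFit, eBayes) in R 4.3.3 on 12 arrays, or on 24 with the lymphoma as a block, Benjamini-Hochberg adjusted, called under 0.05. The scripts were checked on simulated data. Untreated and ADR arrays of a lymphoma correlated between 0.27 and 0.59 in their deviations from the mean of their condition, all above 0.1. In 10 of 12 lymphomas the own pair correlated best. For 2949 (0.45) and 6054 (0.59) the correlation with another lymphoma was higher (0.51 and 0.67). The labels name the same lymphoma in both arrays of each pair. Figures used matplotlib 3.10.9 in Python 3.11.15.

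The split, lists and tests were chosen with earlier results of these data known. Named are the 12 called genes with the largest difference in each direction whose groups did not overlap (none was called, so the largest with a mean above 5 in a group), the 2 largest differences of each list, measured anchor genes, and the 10 best correlated with the score. Other genes named were chosen after their values were seen. Alternatives covered probe set, normalization, low values, marker covariates, file name word, score, array weights and single lymphomas.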

Additional observations from a re-analysis of the deposited data

Results flagged for a closer look

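In the 288 groups of 6 untreated arrays that were looked at (named genes and list means, high and low apart), 26 held 1 array whose gap to its neighbour, as a share of the group's range, passed Dixon's 95% critical value. That is 9.03%. A chance rate of about 1 in 20 holds for groups that were not chosen by their values. Many of these genes were named after their values were seen, and some lists share genes. The 9.03% can therefore not be set against that rate.

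In the high group lymphoma 2949 stood apart in 6 genes: Bmf at 9.17 (next 8.51), Tut7 at 8.71 (next 8.13), Elovl6 at 5.67 (next 7.29), Mfsd2a at 4.77 (next 5.09), Erg28 at 7.57 (next 8.29) and Dhodh at 6.34 (next 7.27). Lymphoma 5560 stood apart in Tmem86a at 7.13 (next 6.35), Mki67 at 9.61 (next 10.67) and the mean of sex-linked genes at 3.11 (next 5.00). Lymphoma 3594 stood apart in Cdkn2a at 5.70 (next 3.62), Dntt at 9.60 (next 5.72) and Sox4 at 8.63 (next 10.54). Chil3 read 3.26 in 3802 (next 2.94).

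In the low group lymphoma 403 stood apart in Cdkn2a at 6.82 (next 3.79) and in the interferon response mean at 7.89 (next 6.65). Lymphoma 3769 stood apart in Dntt at 10.08 (next 5.35) and in the fatty acid synthesis mean at 8.09 (next 8.36). Xist read 4.52 in 403 (next 11.03). S100a8 read 7.75 in 3769 (next 4.60). In 2581 Rag2 read 4.73 (next 3.96) and Ell2 2.14 (next 7.92). Cd28 read 6.04 in 7050 (next 3.82). In 1570 Cr2, a complement receptor of mature B cells, read 4.80 (next 3.72), and the mean of immunoglobulin genes was 8.35 (next 7.05). In 1467 the mean of mature B transcription factors was 7.64 (next 7.02) and Klrd1 read 7.27 (next 4.13).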

How the results depend on the processing

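Without single lymphomas limma called 0 to 1 genes between the groups in untreated arrays (1 without 7050: Lratd2, -1.45, adjusted p = 0.0229) and 0 to 1 for the difference in change (1 without 7050: Sap30, 1.00, adjusted p = 0.0497). Among DOX lymphomas alone, chosen after seeing the data, 1 gene was called in untreated arrays, Igfbp2 (-2.76, adjusted p = 0.0230). In the other alternatives 0 genes were called, and in ADR arrays 0 in all. At an unadjusted p under 0.05 the untreated count of 1360 was 839 with the word as a block, 736 with the continuous score, 2113 with array weights, 473 in DOX alone and 2083 without the 2 highest scores. Without the lymphoma block it was 351 for the difference in change, against 911. The median of the cholesterol enzymes lay between -1.32 and -0.48 in the 26 alternatives, and 14 of 28 list medians turned in 1 or more.

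Of 116 genes, 33 turned in 1 or more alternatives, none with a call. With the word as a block Cdkn2a was 0.0193, Rag1 -0.22, Rag2 0.0552, Dntt -0.80, Bach2 0.30, Cd79b 0.0076 and Tm7sf2 0.21. In DOX alone Cdkn2a was 0.57, Mki67 0.0137, Rag2 0.0284, Dntt -1.46, Kit -0.11, Ms4a1 1.22, Irf4 0.0780, Bach2 0.37, Lef1 -0.0351, Erg -0.0294, Cd79a 0.0756, H2-DMb2 1.20, H2-DMa 1.35, Aurkb 0.0332, Lyz1 -0.0840, Klrd1 0.59, Hsd17b7 0.0175, Jchain 0.32, Lyz2 -0.10, Pmvk 0.21 and Tm7sf2 0.39. With the continuous score Rag1 was -0.46, Rag2 0.0204, Dntt -0.0991, Cd22 -0.0337, Ebf1 -0.0579, Rtp4 0.24 and Cd79b 0.0470. With 4 against 4, Rag2 was 0.12, Cd22 -0.0084, Bach2 0.14 and Ell2 -0.17. With Vpreb1 alone Cd22 was -0.0492, Pax5 -0.0235 and Xist 0.0976. Without the 2 highest scores Ighm was -0.0520, Erg -0.0466, 1700042O10Rik -0.0832, Ramp1 -0.15 and Xist 0.0891. With the fibroblast covariate Rag2 was 0.0163 and Cd79b 0.0056. With the macrophage covariate Erg was -0.0241, H2-DMa 0.26, Klrd1 0.20 and Tm7sf2 0.19. Erg was -0.0328 with quantile normalization, and Akirin1 -0.14 with its probe set of largest variance. Without single lymphomas Cdkn2a ranged from -0.68 to 0.27, Rag2 from -0.0736 to 0.14, Dntt from -0.34 to 1.25, Cd22 from -0.13 to 0.27, Ebf1 from -0.0019 to 0.45, Bach2 from -0.57 to 0.0377, Erg from -0.0301 to 0.0594, Klrd1 from -0.65 to 0.22 and Tm7sf2 from -0.26 to 0.11. The cause was not tested. The number of lymphomas, 6 a group, limits the precision, and differences of genes near the floor are understated.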

Other observations

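Xist, which is transcribed from the inactive X chromosome, read between 11.03 and 12.33 in 8 untreated lymphomas and between 4.28 and 5.46 in 3802, 5560, 3594 and 403. Of those 4, 3 belong to the high group, among them the 2 highest scorers, and the difference of Xist was -1.76 (SE 1.77, limma adjusted p = 0.828) and 0.09 without those 2. Jchain, which joins secreted antibody chains, read 12.46 in 3594, 12.09 in 1570 and 9.16 in 1467 and between 3.63 and 7.69 elsewhere. Ell2, an elongation factor of secreting B cells, read 2.14 in 2581 and between 7.92 and 9.86 in the other 11. Uty, from the Y chromosome, read 5.37 in 3802 and lay at the floor, at most 4.02, in every other lymphoma of both groups.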
